A study of Mus musculus with 24 samples.

Results

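The myelin genes described here are Mbp, Cnp, Mag, Mog, Mobp, Mal, Myrf, Ugt8a and Cldn11. They were chosen by symbol, and they make up 9 of the 55177 genes into which the transcripts of the expression tables fell. The study sequenced RNA from cultured mouse cortical neurons of embryonic day 16.5 and asked how expression changed with depolarization by KCl and with loss or replacement of Smarcc2, which belongs to the BAF complexes that remodel chromatin. Per the growth protocol, the cortex of each embryo counted as a biological replicate. The labels do not tie libraries of different groups to the same embryo.

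All cultures were silenced overnight with 1 µM tetrodotoxin, a sodium channel blocker, and 100 µM D-AP5, an NMDA receptor blocker. For depolarization, 50 mM KCl was added for 30 min. The 4 libraries at 7 days in vitro (DIV7) came from wild-type neurons that also received 0.1% DMSO, 2 resting and 2 depolarized, and were made from poly(A) RNA. The 20 libraries at DIV18 were made from total RNA depleted of ribosomal RNA. Controls of that age had a guide RNA with no target (non-targeting, NT, 2 resting and 2 depolarized). All other DIV18 cultures carried a CRISPR knockout of Smarcc2 (KO). Of these, 3 resting and 3 depolarized libraries had an empty vector, 2 resting and 3 depolarized had wild-type Smarcc2 added back (WT), 3 resting had Smarcc2 S586E added back and 2 depolarized had Smarcc2 S586A added back. The NT labels name no vector or addback construct. In contrasts with NT, the knockout and the added vector or construct therefore cannot be told apart. The guides and constructs entered mixed cultures, and the labels name no promoter that would limit them to 1 cell type. The DIV7 libraries held 24536056 to 30135576 estimated counts each, and those of DIV18 14510199 to 24024959. Smarcc2 itself fell in KO with vector, from 237 and 265 CPM in resting NT (counts scaled to a common library total with edgeR's TMM factors) to between 47.1 and 64.1 CPM, and was at 737 to 1340 CPM in the cultures with an addback construct.

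Myelin is the sheath that oligodendrocytes wrap around axons in the brain, and its proteins and lipids are made late in the life of these cells. Myelin basic protein (Mbp) and Mobp lie on the cytoplasmic side of compact myelin, Cnp and Ugt8a are enzymes, Mag and Mog are surface proteins, Cldn11 and Mal are membrane proteins, and Myrf is the transcription factor that switches the programme on. Mbp also has an upstream start, whose transcripts, known as golli-Mbp, are made outside myelin too, neurons included.

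The labels call the cells primary neurons. Summed over 7 neuron markers, the DIV18 libraries held 4320 to 5980 CPM, and summed over 8 astrocyte markers 859 to 2030 CPM. Most of the astrocyte sum came from 1 gene, Slc1a2, at 635 to 1250 CPM. Gfap was at 37.2 to 311 CPM and Aldh1l1 at 7.26 to 46.5 CPM, so the cultures were not neurons alone. Since these are bulk samples, fewer cells of a type and less RNA per cell cannot be told apart in any result below.

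For the members the results turn on, the 250 bases before the start were read from the RefSeq promoter table on build GRCm38.p6, which held entries for 7 of the 9 genes. Mbp and Myrf had none. Cldn11 is shown because it was the member called lower than in NT, and Cnp and Mag because their windows hold a searched motif. Each line runs from 5′ to 3′ on the gene's own strand, and capitals mark CTGGCAC, the core recognised by Myrf.
Cldn11 (chr3:31149670-31149919, plus strand): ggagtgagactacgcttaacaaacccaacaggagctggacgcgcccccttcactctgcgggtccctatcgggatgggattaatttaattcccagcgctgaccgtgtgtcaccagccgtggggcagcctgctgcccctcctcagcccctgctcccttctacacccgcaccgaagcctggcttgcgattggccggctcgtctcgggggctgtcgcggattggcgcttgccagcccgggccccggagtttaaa
Cnp (chr11:100574689-100574938, plus strand): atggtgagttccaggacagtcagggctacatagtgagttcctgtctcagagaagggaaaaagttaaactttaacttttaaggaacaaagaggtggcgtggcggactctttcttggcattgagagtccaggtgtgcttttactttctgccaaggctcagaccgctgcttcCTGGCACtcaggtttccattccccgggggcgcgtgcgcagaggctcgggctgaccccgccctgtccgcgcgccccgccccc
Mag (chr7:30914864-30915113, minus strand): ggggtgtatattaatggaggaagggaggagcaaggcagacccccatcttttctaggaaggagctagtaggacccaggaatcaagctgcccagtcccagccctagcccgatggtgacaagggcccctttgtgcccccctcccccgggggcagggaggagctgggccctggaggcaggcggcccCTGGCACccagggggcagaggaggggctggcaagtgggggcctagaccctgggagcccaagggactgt
The core CTGGCAC (other strand GTGCCAG) lay 81 bases before the start in Cnp and 68 bases before it in Mag, and a 2nd annotated start of Mag shares that match. It occurs in 4.19% of the 32851 promoter windows of this length. The SOX core AACAAT (other strand ATTGTT), found in 9.42% of windows, and the E-box CAGCTG, found in 13.0%, were in the window of none of the 7 genes. These are matches of letters and show no binding.

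Mbp had by far the most reads of the 9 genes. Its gene (ENSMUSG00000041607.17; GRCm38, chromosome 18, 82475146 to 82585637, plus strand) has 16 transcripts in the tables, 4 that start within 224 bases of the gene's first base and 12 that start 79324 to 88116 bases downstream. The first are the long, golli-type forms, and the second include those that encode the classic myelin proteins. Per length, in TPM (read assignments divided by transcript length and scaled to a common total), Mbp ran from 17.8 to 29.3 over the DIV18 libraries with a median of 25.2. Cnp followed with a median of 3.30 TPM. The other 7 genes had medians of at most 0.930 TPM, which was the value of Mog.

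Nearly all Mbp reads were assigned to the long forms. Between 96.4 and 99.1% of its counts at DIV18 (median 98.1%) and between 98.1 and 99.8% at DIV7 lay on transcripts with the upstream start. On the TPM scale the share was 90.5 to 97.4% at DIV18. The single transcript Mbp-205, which is 4797 bases long and ends at 82558703, far short of the end of the gene, held 81.1 to 87.7% of the counts of Mbp at DIV18. Mbp-201, a long-start transcript that runs to the last base of the gene, held 8.92 to 15.5%. All 12 short forms together had 23.8 to 83.0 estimated counts per DIV18 library and 1.3 to 18.4 per DIV7 library. Reads on exons that long and short forms share were divided between them by kallisto, so the short-form counts are estimates.

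**Figure D1:**
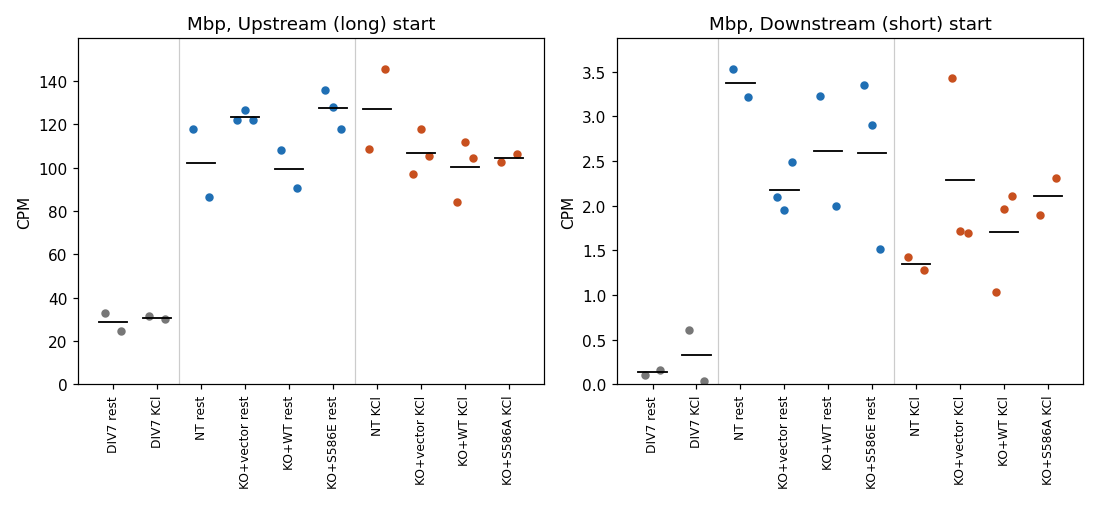
CPM assigned to Mbp transcripts with the upstream (long) and the downstream (short) start, on separate linear scales; each point is 1 library and each line a group mean. The long forms lie above 80 CPM in every DIV18 library, and the short forms between 1.04 and 3.53 CPM.

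Between NT and KO with vector the long forms did not differ past the threshold. At rest they were at 118 and 86.5 CPM in NT and at 122, 127 and 122 CPM in KO with vector. The log2 fold change was 0.27 (SE 0.142, adjusted p 0.290, quasi-likelihood F test of edgeR with Benjamini-Hochberg adjustment over 20941 features). Under KCl they were at 109 and 145 CPM in NT and at 97.1, 118 and 105 CPM in KO with vector, a log2 fold change of -0.25 (SE 0.141, adjusted p 0.394, edgeR). Every library of KO with vector lay above both NT libraries at rest, and under KCl these 2 groups overlapped.

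The short forms had the opposite sign in both states and did not pass either. At rest they were at 3.53 and 3.21 CPM in NT and at 2.10, 1.95 and 2.48 CPM in KO with vector (log2 fold change -0.63, SE 0.370, adjusted p 0.357, edgeR). Under KCl the values were 1.42 and 1.28 CPM in NT against 3.43, 1.72 and 1.70 CPM (0.76, SE 0.402, adjusted p 0.359, edgeR). The NT libraries were thus the highest in the first case and the lowest in the second. Of the 2 forms 0 were called in either state (edgeR; 0 at an unadjusted p under 0.05; 0 with DESeq2), where 5.9% of all genes tested were called at rest and 2.67% under KCl.

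At the level of the whole gene Mbp was at 121 and 89.8 CPM in resting NT and at 124, 129 and 125 CPM in resting KO with vector. Resting WT had 111 and 92.6 CPM, and resting S586E had 139, 131 and 119 CPM. Against NT the log2 fold change was 0.25 with vector (SE 0.141, adjusted p 0.332, edgeR), -0.05 with WT (adjusted p 0.980) and 0.30 with S586E (SE 0.141, adjusted p 0.277). Under KCl the gene was at 110 and 147 CPM in NT and between 85.0 and 120 CPM in the 8 KO libraries. Its log2 fold changes there were -0.23 with vector, -0.33 with WT and -0.27 with S586A (adjusted p 0.378 to 0.509, edgeR). The change of sign between rest and KCl, tested as the difference between the vector contrasts, was -0.49 (SE 0.199, unadjusted p 0.0246, adjusted p 0.506, edgeR).

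Mobp (ENSMUSG00000032517.16; chromosome 9, 120149707 to 120181484, plus strand), the other cytoplasmic protein of compact myelin, was close to the limit of detection. It had 0 to 18 counts per DIV18 library, under 10 in 12 of the 20, and no contrast was called. The highest value was 0.778 CPM in a depolarized WT library and the lowest 0 in a depolarized library of KO with vector. Those 2 groups, at 0.410 to 0.778 CPM and at 0 to 0.326 CPM, gave its largest difference, a log2 fold change of 1.98 for WT against vector (SE 0.733, unadjusted p 0.0144, adjusted p 0.999, edgeR). The sign of its resting contrast between vector and NT (0.20) depended on single libraries and on the replicate block. A same-strand transcript, Gm38642, overlaps the gene.

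Cnp (ENSMUSG00000006782.16; chromosome 11, 100574904 to 100591729, plus strand) encodes an enzyme that is 1 of the earliest myelin proteins made. It was at 10.8 and 12.4 CPM in resting NT, at 10.5, 9.55 and 8.28 CPM in KO with vector, at 9.73 and 9.97 CPM with WT and at 9.61, 8.24 and 9.40 CPM with S586E. All 8 resting KO libraries lay below both resting NT libraries. No contrast passed, with log2 fold changes against NT of -0.30 with vector (SE 0.232, adjusted p 0.513, edgeR), -0.24 with WT and -0.35 with S586E. Under KCl the NT libraries, at 7.68 and 10.9 CPM, overlapped those of all 3 KO groups, and both S586A libraries (10.1 and 9.66 CPM) lay between them. Dnajc7 overlaps Cnp on the opposite strand, and the sources used here do not state whether strand was used in the assignment of reads.

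Ugt8a (ENSMUSG00000032854.12; chromosome 3, 125865271 to 125938619, minus strand) makes galactosylceramide, the main glycolipid of myelin. It was at 1.44 and 1.24 CPM in resting NT, which were its 2 highest values at DIV18. KO with vector had 0.377, 0.211 and 1.02 CPM, WT 0.664 and 0.237 CPM, and S586E 0.330, 0.434 and 0.209 CPM. No resting KO library reached the NT libraries. Over summed counts, NT had 2.65 times the level of KO with vector (95% exact counting interval 1.66 to 4.34), 2.98 times that of WT (1.76 to 5.29) and 4.06 times that of S586E (2.42 to 7.11). These intervals cover counting error only.

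With replicate error taken in, Ugt8a did not pass in any of these contrasts. The log2 fold change was -1.35 with vector (SE 0.546, adjusted p 0.164, edgeR), -1.56 with WT (SE 0.613, adjusted p 0.504) and -2.02 with S586E (SE 0.560, adjusted p 0.0596). The S586E value passed with DESeq2 (adjusted p 0.0459), without the low-count filter (0.0368, edgeR) and with the replicate number as a block (0.0349, edgeR). The vector value passed when KO with vector replicate 3, the library at 1.02 CPM, was left out (-2.17, adjusted p 0.0371, edgeR). Under KCl Ugt8a was at 0.616 and 0.694 CPM in NT, at 0.256, 0.296 and 0.521 CPM with vector, at 0.346, 0.502 and 0.537 CPM with WT and at 0.664 and 0.752 CPM with S586A. The depolarized vector and WT libraries lay below NT, and the S586A libraries did not (log2 fold changes -0.88, -0.50 and 0.11, adjusted p 0.502 to 0.968, edgeR).

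Mag and Mog are immunoglobulin-like proteins on the myelin surface, Mag on the face next to the axon and Mog on the outermost layer. Mag (ENSMUSG00000036634.15; chromosome 7, 30899176 to 30914873, minus strand) had 84 counts over all 20 DIV18 libraries, at most 9 in any of them, and did not pass the low-count filter at either age. Of those counts 66.5% were assigned to Mag-208, a short processed transcript that is not annotated as coding. At rest it was at 0.297 and 0.321 CPM in NT (7 counts in each), at 0 to 0.446 CPM with vector, at 0.0949 and 0.285 CPM with WT and at 0.0549 to 0.304 CPM with S586E. Under KCl WT had 7, 9 and 8 counts, NT 2 and 4, vector 1, 1 and 3, and S586A 4 and 0. The depolarized WT libraries, at 0.302 to 0.411 CPM, thus lay above all other depolarized DIV18 libraries. In a fit without the low-count filter the difference from vector was 1.80 on the log2 scale (SE 0.967, unadjusted p 0.0627, adjusted p 1, edgeR), and no contrast of Mag passed (adjusted p 0.725 to 1).

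Mog (ENSMUSG00000076439.12; chromosome 17, 37010743 to 37023398, minus strand) had 12 to 57 counts per library at DIV18, all on Mog-201. It was at 1.87 and 2.34 CPM in resting NT and at 0.969 to 1.91 CPM in KO with vector, 1.57 and 2.09 CPM with WT and 0.659 to 2.08 CPM with S586E. The groups overlapped, and the log2 fold changes against NT ran from -0.73 with S586E (SE 0.388, adjusted p 0.341, edgeR) to -0.20 with WT. Under KCl it was at 1.80 and 1.97 CPM in NT and at 1.17 to 2.46 CPM in the KO libraries. In the 4 poly(A) libraries of DIV7 the same transcript had 276 to 322 counts, and Mog was at 9.33 to 13.0 CPM, or 10.7 to 15.2 TPM beside 11.2 to 15.8 TPM for Mbp. Age, library type, DMSO and guide RNA cannot be told apart here, so the ages were not compared. A small RNA gene, Gm22388, overlaps Mog on the opposite strand.

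Mal (ENSMUSG00000027375.14; chromosome 2, 127633226 to 127656695, minus strand), a lipid-raft protein of myelin, had 12 counts over all DIV18 libraries and was at 0 in 14 of the 20. It passed the low-count filter at neither age. Its highest DIV18 library held 3 counts, and no contrast passed without the filter (adjusted p 0.799 to 1, edgeR).

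**Figure D2:**
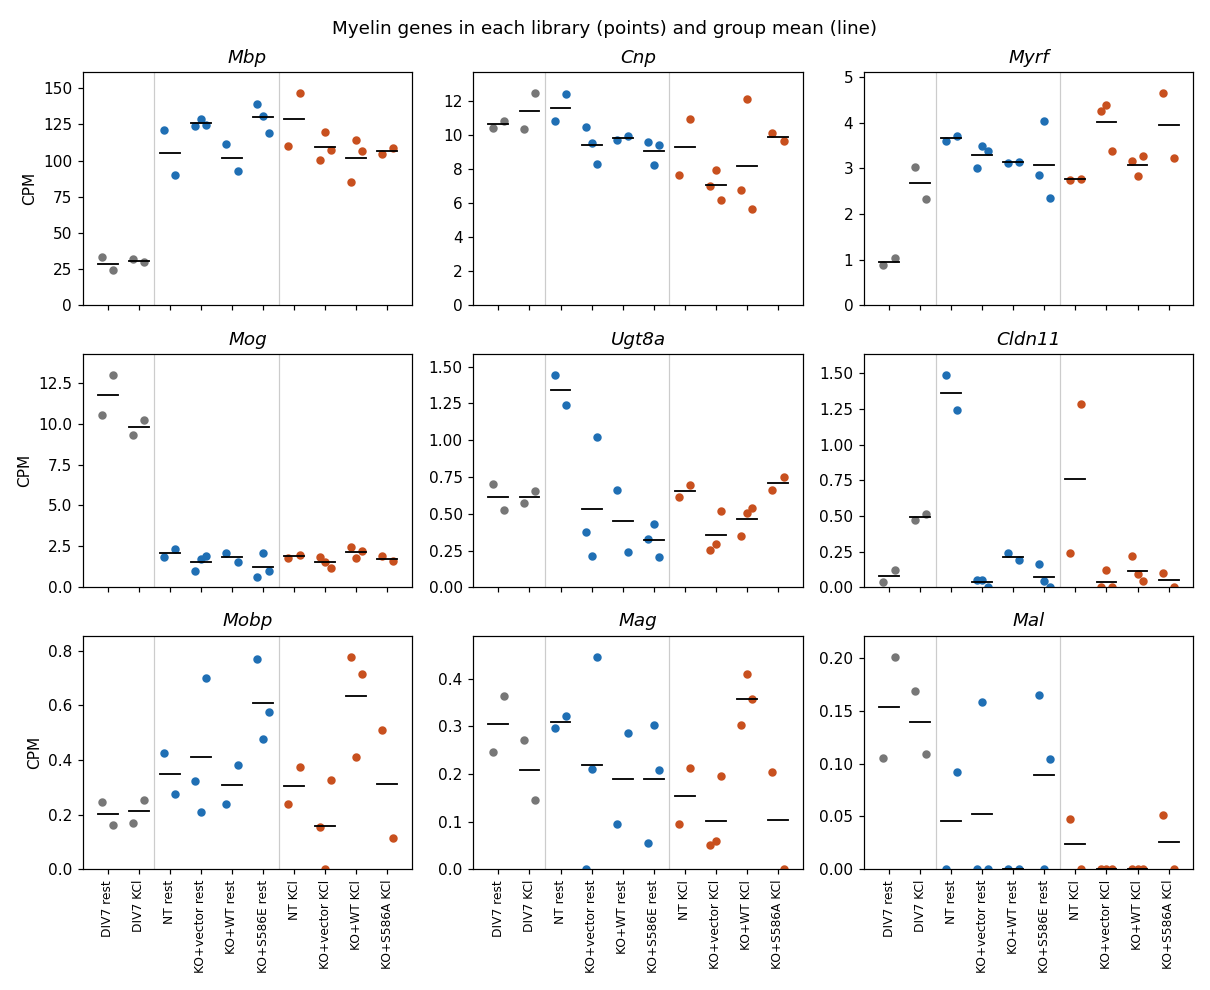
CPM (linear axes that differ between genes) of the 9 myelin genes in every library (points) with group means (lines); grey is DIV7, blue resting DIV18 and red depolarized DIV18. Cldn11 and Ugt8a are highest in resting NT, and Mag and Mal stay under 0.5 CPM in every library.

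Cldn11 was the member that fell. It encodes claudin 11 (ENSMUSG00000037625.7; chromosome 3, 31149920 to 31164324, plus strand), the tight-junction protein that seals the layers of the sheath. In resting NT it had 35 and 27 counts, or 1.49 and 1.24 CPM. In resting KO with vector it had 1, 1 and 0 counts, or 0.0539, 0.0528 and 0 CPM. NT and KO libraries did not overlap, and the summed counts, 62 against 2, gave a ratio of 36.4 with a 95% exact counting interval of 9.66 to 307. The fitted log2 fold change was -4.97 (SE 1.07, adjusted p 0.0103, edgeR). Only 3 DIV18 libraries had 10 or more counts of Cldn11, all of them NT, so the gene passed the low-count filter through the group where it was high. Fits without that filter, here and elsewhere, rest on the same counts and add no separate support. Fitted in this way over all 41147 genes with a count, Cldn11 was at -4.98 (SE 1.00, adjusted p 4.97e-05, edgeR; 4.9% of genes called). Without NT replicate 2 it was -5.10 and did not pass (adjusted p 0.0931, edgeR), and DESeq2 gave -5.20 with no adjusted p.

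Addback constructs left Cldn11 low. Resting WT had 5 and 4 counts, 0.237 and 0.190 CPM, and resting S586E had 3, 1 and 0 counts, 0.165, 0.0434 and 0 CPM. All of these lay below both NT libraries. The ratio of NT to S586E was 20.7 (62 against 4 counts, interval 7.67 to 78.2), with a log2 fold change of -4.22 (SE 0.970, adjusted p 0.0298, edgeR). This call needed all 5 libraries, since omitting any of them gave an adjusted p of 0.0635 to 0.339 (edgeR), and it was also lost with length offsets (0.0550). It too came through the filter by the NT libraries, and without the filter its adjusted p was 0.000308 (edgeR; 3.84% of genes called). The ratio of NT to WT was 6.40 (62 against 9 counts, interval 3.16 to 14.7), and its log2 fold change of -2.64 (SE 0.968) did not pass (unadjusted p 0.0137, adjusted p 0.436, edgeR).

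Both resting WT libraries of Cldn11 lay above the 3 vector libraries. The difference between WT and vector, 2.33 on the log2 scale, did not pass (SE 1.25, unadjusted p 0.0787, adjusted p 0.514, edgeR). That between S586E and vector was 0.75 (SE 1.37, adjusted p 0.977) and that between S586E and WT was -1.59 (SE 1.13, adjusted p 0.590). All contrasts of a construct with NT share the same NT libraries, and those with vector share the vector libraries, so their values are not independent.

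Under KCl Cldn11 differed between the 2 NT libraries, with 5 counts (0.237 CPM) in replicate 1 and 24 counts (1.28 CPM) in replicate 2. KO with vector had 0, 2 and 0 counts, WT 5, 2 and 1 counts, and S586A 2 and 0 counts. Each depolarized KO library lay below both NT libraries, at 0 to 0.216 CPM. NT replicate 1 and WT replicate 1 had the same 5 counts, and only library scaling set them apart (0.237 and 0.216 CPM). The log2 fold changes against NT were -4.07 with vector (SE 1.11, adjusted p 0.0583, edgeR), -2.61 with WT (SE 0.918, adjusted p 0.285) and -3.66 with S586A (SE 1.21, adjusted p 0.202), and none passed. Without the low-count filter the vector value passed (adjusted p 0.00456, edgeR; 3.49% of genes called). The vector contrasts of the 2 states differed by 0.90 (SE 1.95, adjusted p 0.939, edgeR).

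Myrf (ENSMUSG00000036098.15; chromosome 19, 10208272 to 10240748, minus strand), the regulator, passed the test with no construct. It was at 3.61 and 3.72 CPM in resting NT, at 3.02 to 3.48 CPM with vector, at 3.13 CPM in both WT libraries and at 2.35 to 4.03 CPM with S586E (log2 fold changes -0.15, -0.23 and -0.24, adjusted p 0.644 to 0.913, edgeR). Under KCl it was at 2.75 and 2.77 CPM in NT, at 4.25, 4.39 and 3.39 CPM with vector, at 3.16, 2.83 and 3.27 CPM with WT and at 4.65 and 3.24 CPM with S586A. The depolarized KO libraries all lay above NT. No value passed (0.54 with vector, SE 0.241, unadjusted p 0.0378, adjusted p 0.268; 0.16 with WT, adjusted p 0.865; 0.52 with S586A, adjusted p 0.450, edgeR).

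**Figure D3:**
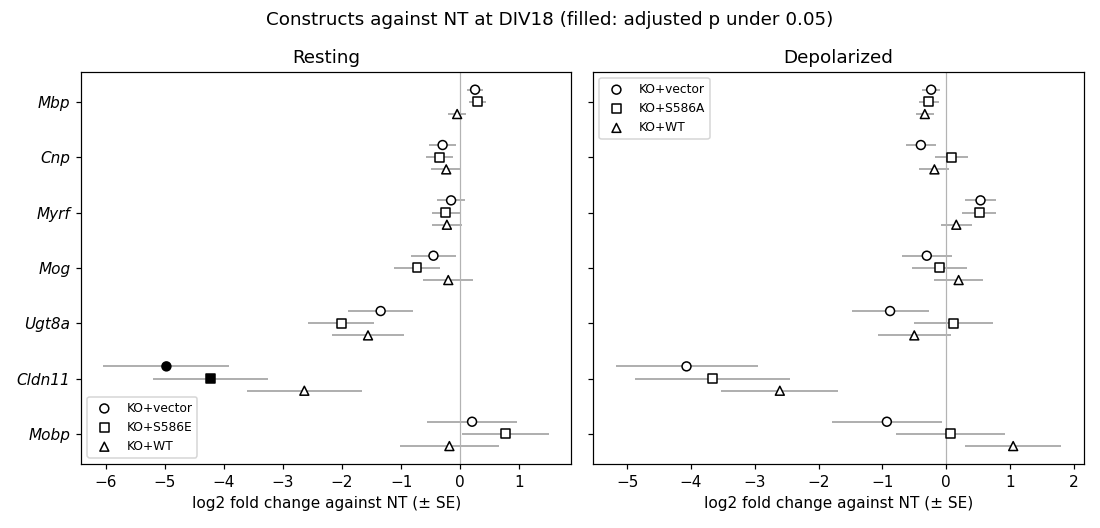
Log2 fold change against NT (x axis, bars ± SE) of the 7 myelin genes that passed the low-count filter at DIV18, at rest (left) and under KCl (right); filled symbols have an adjusted p under 0.05 in edgeR. Cldn11 with vector (-4.97) and with S586E (-4.22) at rest are the 2 filled symbols.

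Counted as a list, 7 of the 9 members passed the low-count filter at DIV18, Cldn11 through NT alone, so the counts and medians below describe those 7 and support nothing about the list. In KO with vector against NT at rest 1 of the 7, Cldn11, was called lower and 0 higher, where 5.9% of all 20940 genes tested were called (3.77% lower). The median log2 fold change of the 7 was -0.30, against 0.02 for all genes tested. With S586E 1 was called, again Cldn11, where 2.78% of all genes were called (1.74% lower), with a median of -0.36. In WT against NT at rest 0 of 7 were called (edgeR; 0 with DESeq2), where 0.105% of all genes were called. At an unadjusted p under 0.05 there were 2 of 7, beside 7.88% of all genes.

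Under KCl 0 of the 7 were called with vector, with WT or with S586A, in edgeR and in DESeq2, where edgeR called 2.67%, 0.201% and 0.43% of all genes. At an unadjusted p under 0.05 there were 2, 2 and 1 of the 7, beside 16.6%, 11% and 11.8% of all genes (edgeR). The medians of the 7 were -0.40, -0.18 and 0.07. In each contrast with NT DESeq2 gave Cldn11 no adjusted p, and it left 2 to 6 of the 7 members without one, so its counts of 0 cover the others. Between constructs 0 members were called in edgeR or DESeq2, which left up to 6 without an adjusted p. Of all genes edgeR called 0.0143% in WT against vector at rest and 0.00955% under KCl, 0.0191% in S586E against vector, 0.00955% in S586A against vector, and 0% in S586E or S586A against WT. At an unadjusted p under 0.05 there was 1 of 7 in WT against vector at rest (11.1% of all genes), 1 under KCl (4%) and 1 in S586E against WT (12.9%), and 0 in S586E against vector (7.45%), S586A against vector (13%) and S586A against WT (8.71%). Mbp was the member at an unadjusted p under 0.05 in S586E against WT (0.35, SE 0.142, adjusted p 0.304, edgeR), and it passed there without the low-count filter (adjusted p 0.0482; 1.9% of genes called).

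Other genes of mature oligodendrocytes were examined as a list. This list and those that follow were chosen for known roles, but with earlier results of these data known. Their calls are therefore no independent support for the fall of Cldn11. Of the 20 genes listed, 14 passed the filter at DIV18. At rest 5.9% of all genes were called with vector and 2.78% with S586E. In KO with vector at rest 4 were called lower and 0 higher, and 0 were called without NT replicate 2. They were Bcas1, a marker of newly forming oligodendrocytes (log2 fold change -3.90, adjusted p 0.00787, edgeR), Pllp or plasmolipin (-1.31, adjusted p 0.0126), the tetraspanin Tspan2 (-1.23, adjusted p 0.00741) and the iron carrier Trf (-0.96, adjusted p 0.0463). Bcas1 had 105 and 129 counts in resting NT and 10, 0 and 8 in KO with vector. With S586E 2 were called lower, Bcas1 (-3.72, adjusted p 0.0210) and Pllp (-1.54, adjusted p 0.0137), and 0 without NT replicate 2 or S586E replicate 1. Under KCl Trf was called lower with vector (-1.19, adjusted p 0.0276), a call lost when any 1 library of the contrast was left out. Of the 14 genes with vector under KCl, 6 had a log2 fold change below 0 and 8 above it, with a median of 0.048. Of all genes 2.67% were called there. With WT in either state or with S586A 0 of the 14 were called (edgeR; 4, 1 and 3 at an unadjusted p under 0.05, beside 7.88%, 11% and 11.8% of all genes).

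Of 11 genes of the oligodendrocyte lineage and its precursors, all tested, 5 were called lower and 0 higher in KO with vector at rest, where 5.9% of all genes were called: the transcription factors Sox10 and Olig1 (-2.40), the growth factor receptor Pdgfra (-5.18), the proteoglycan Cspg4 (-2.66) and the receptor Gpr17. Sox10 had 65 and 183 counts in resting NT and 0 in each vector library, and Gpr17 had 36 and 75 against 0 in each. Olig2, Nkx2-2, C1ql1, Matn4, Sox8 and Lhfpl3 did not pass. Mean levels of Sox8 were 16.0 CPM in NT and 14.9 CPM with vector, and those of Lhfpl3 21.5 and 21.0 CPM. The median of the list was -2.40, against 0.02 for all genes tested. Without NT replicate 2 there were 3 calls, Cspg4, Pdgfra and Sox10. With S586E the called genes were Sox10 (-6.65), Pdgfra (-5.08), Cspg4 (-2.68), Nkx2-2 (-3.25) and Gpr17, which was at 0 counts in all 3 libraries, and 0 were called without NT replicate 2. Of all genes 2.78% were called with S586E. With WT 0 passed at rest (edgeR; 8 of 11 at an unadjusted p under 0.05, beside 7.88% of all genes), with a list median of -1.96. Summed over the list, resting NT had 111 to 161 CPM and the resting KO libraries 39.8 to 66.2 CPM. Gpr17 and Nkx2-2 had fewer than 10 counts in 17 of the 20 DIV18 libraries, and the others were all NT. Both passed the low-count filter through the group where they were high. The calls and medians of this list therefore describe the genes tested and support nothing about the list.

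Under KCl the lineage genes called lower with vector were Olig1 (-2.57), Olig2 (-2.18), Nkx2-2 (-4.32) and Pdgfra (-3.33), where 2.67% of all genes were called. Of these, Nkx2-2 passed the filter through NT alone. With WT or S586A 0 passed (edgeR; 5 and 5 at an unadjusted p under 0.05, beside 11% and 11.8% of all genes). The calls with vector fell to 0 without NT replicate 2 or any 1 of the vector libraries. The NT libraries split here as they did for Cldn11. Pdgfra had 30 counts in depolarized NT replicate 1 and 253 in replicate 2, beside 5 and 24 counts of Cldn11, and the summed list ran from 46.7 to 105 CPM between them. The depolarized KO libraries had 38.5 to 62.2 CPM. In the 16 KO libraries, where Cldn11 had 0 to 5 counts, Gpr17 had 0 to 5 and Sox10 0 to 13 counts. Pdgfra had 1 to 73 counts there, Olig2 28 to 192, Cspg4 32 to 136 and Olig1 33 to 221. The part of these cells in the result was not tested.

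**Figure D4:**
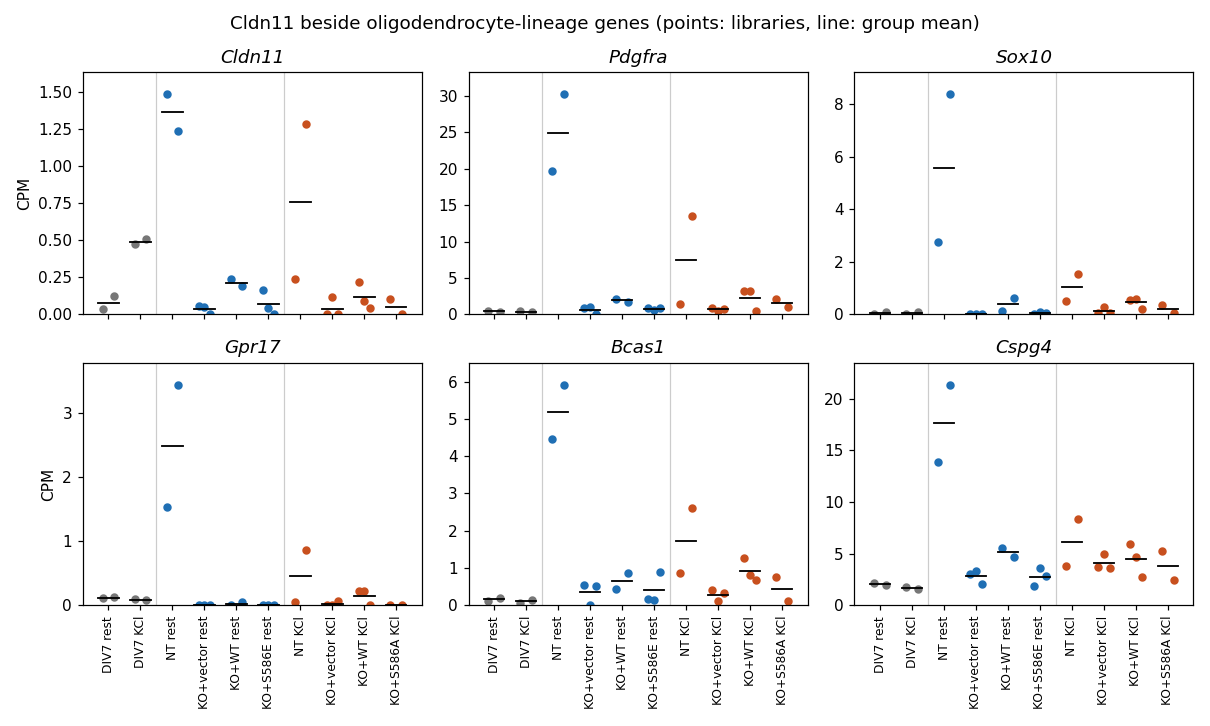
CPM (linear axes) of Cldn11 and of 5 lineage and oligodendrocyte genes in every library (points), with group means (lines). Resting NT libraries are the highest for Pdgfra, Gpr17, Bcas1 and Cspg4, and every resting NT library lies above every KO library for Cldn11 and Sox10.

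Some astrocyte markers were lower too. At rest 3 of 8 were called lower with vector, Slc1a2 (-0.50), Aldoc (-1.11) and Fgfr3 (-1.24), where 5.9% of all genes were called. Under KCl 2 were called lower, Aqp4 (-3.38) and Slc1a2 (-0.77), where 2.67% of all genes were called. With S586A Slc1a2 was called lower (-0.65), where 0.43% of all genes were called. Resting KO with vector replicate 3, the library with the highest Ugt8a of its group, stood apart. It had 47.3 CPM of Aldoc, beside 133.6 and 122.5 CPM in the other vector libraries, and 37.2 CPM of Gfap, beside 169.6 and 132.2 CPM. Without it 1 astrocyte marker, Aldoc, was called lower at rest, the lineage list kept the same 5 calls, and Cldn11 was at -4.52 (adjusted p 0.0324, edgeR). The astrocyte calls fell to 0 without either resting NT library, and under KCl without NT replicate 2. The summed list was at 1670 to 1840 CPM in resting NT and at 955 to 1420 CPM in the resting KO libraries. Slc1a2 made most of these sums. It was at 822.2 CPM in resting vector replicate 3, beside 930.6 and 713.7 CPM in the other vector libraries, so the sums hide the low values of Aldoc and Gfap there. Of 5 microglial genes, Csf1r was called lower with vector at rest (-1.31), where 5.9% of all genes were called. Of 7 neuron genes, Snap25 was called lower with vector under KCl (-0.36), where 2.67% of all genes were called. The part of these cell types in the fall of Cldn11 was not tested.

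Depolarization for 30 min called none of the 7 members at DIV18. The count was 0 in NT, in KO with vector and in WT (edgeR, 0 at an unadjusted p under 0.05 in each; 0 with DESeq2, which left 1 to 3 members without an adjusted p), where 0.00955%, 0.0716% and 0.043% of all genes were called. Comparing these responses, that of KO with vector differed from that of NT for 0 members (edgeR; 1, Mbp, at an unadjusted p under 0.05, beside 8.81% of all genes; 0 with DESeq2; 0% of all genes called). The log2 fold change of Myrf was -0.41 in NT (SE 0.259), 0.29 in KO with vector (SE 0.213) and -0.02 in WT (SE 0.236). The largest response by size was that of Mobp in KO with vector, -1.34 (SE 0.772, adjusted p 0.565, edgeR), on 0 to 11 counts per library.

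At DIV7, 2 of the 6 members that passed the filter rose with KCl and 0 fell, where 17% of the 19822 genes tested were called (7.34% higher). Of these 2, Cldn11 passed the filter through the depolarized libraries alone, so the count describes the 6 and supports nothing about the list. Myrf went from 0.877 and 1.05 CPM (25 and 26 counts) at rest to 3.04 and 2.33 CPM (90 and 64 counts) under KCl. Both depolarized libraries lay above both resting ones, with a log2 fold change of 1.49 (SE 0.257, adjusted p 0.0103, edgeR). Without resting replicate 1 it did not pass (1.36, adjusted p 0.0522, edgeR), nor with length offsets (1.25, adjusted p 0.0581).

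Cldn11 had 1 and 3 counts at rest and 14 and 14 counts under KCl at DIV7 (0.0351 and 0.121 CPM against 0.473 and 0.510 CPM). The ratio of depolarized to resting was 6.55 (28 against 4 counts, 95% exact counting interval 2.29 to 25.7), with a log2 fold change of 2.63 (SE 0.628, adjusted p 0.0310, edgeR). The call was lost when any 1 of the 4 libraries was left out (adjusted p 0.0793 to 0.199, edgeR). Cldn11 passed the low-count filter through the depolarized libraries, where it was high, and without the filter its adjusted p was 0.00227 (edgeR; 12.3% of genes called). Of the other members Mbp (0.10), Cnp (0.10), Ugt8a (-0.004) and Mog (-0.26, SE 0.131, adjusted p 0.219) did not pass. In the same contrast 0 of 13 other mature oligodendrocyte genes were called (edgeR; 2 at an unadjusted p under 0.05, beside 31.6% of all genes), and of 7 lineage genes tested Sox8 was called lower (-0.97, adjusted p 0.0157). Sox10 had 0 to 2 counts in each of these libraries and Pdgfra 9 to 13.

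The members that passed the filter were also set side by side across the 20 DIV18 libraries. Over their 21 pairs Pearson's r of log2 CPM ran from -0.42, for Mbp and Mog, to 0.62, for Cldn11 and Ugt8a, with a median of 0.03. These libraries share constructs and controls, and several of the genes have few counts, so the values are a description. Of 15131 other genes with a mean of at least 1 CPM, those most like the average of the 7 members were Mcm5 (r 0.763), Top2a (0.733) and Rrm2 (0.731), which serve DNA replication or chromosome separation, then Grn (0.716), Tspan17 (0.704), Xaf1 (0.70), Acsl3 (0.696) and Pdgfra (0.693). These are the highest of many genes ranked over 20 libraries, were not tested, and show no link to the members. With a median r of 0.03 among the members, their average is not a profile they share.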

How the data were processed

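RNA was sequenced in 24 libraries of cultured mouse cortical neurons. The submitters' processing notes name FastQC, cutadapt and kallisto, with no versions, and the genome build and annotation are not given in the sources used here. Per the file headers, the authors deposited estimated counts (not whole numbers), TPM values and effective lengths per transcript. Of 142552 transcripts, 141429 (99.2%) matched GENCODE M21 (GRCm38) and were used, and the rest held at most 0.467% of a library's counts.

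Estimated counts were summed per gene, and for Mbp also over transcripts with the upstream or downstream start, and rounded to whole numbers. The authors' TPM values were summed to compare genes per length, and effective lengths deposited beside them served length offsets. Tests were edgeR 4.0.16 quasi-likelihood F tests in R 4.3.3 (two-sided, TMM, filterByExpr, Benjamini-Hochberg over all genes, threshold 0.05), fitted on the 20 DIV18 libraries in 8 groups (20940 genes, 12 residual degrees of freedom, biological coefficient of variation 14.6%) and on the 4 DIV7 libraries alone (19822 genes, 2 residual degrees of freedom, 6.44%), and checked on simulated data, where the share of false calls exceeded the nominal threshold in both comparisons simulated. P-values measure the spread between cultures as labelled. Counting intervals are exact at 95% and cover counting error only. Alternatives were DESeq2 1.42.0, median-of-ratios size factors, no low-count filter, a replicate block, length offsets, only the groups compared, and leaving out each library in turn. Refits of the other gene lists without single libraries, and values of Mag and Mal without the filter, were added after seeing the data.

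The members and lists were chosen with earlier results of these data known. The genes named are the 9 members, any gene of the other lists called against NT, Smarcc2 and the 8 genes most like the members. Sox8 was named after its values were seen. To check whether replicate numbers pair the libraries, deviations from the group means were correlated between libraries of the same number. The correlations ran from -0.0465 to 0.293. Every pair exceeded 0.1 in S586E against vector at rest (0.293, 0.103 and 0.291) and in WT against vector under KCl (0.106, 0.114 and 0.236), and, with only 2 pairs each, in WT against NT at rest (0.104 and 0.104) and under KCl (0.111 and 0.12).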

Additional observations from a re-analysis of the deposited data

Results flagged for a closer look

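Of the results on the 9 genes, 5 had opposite directions in every library of the groups compared, 3 in Myrf and 2 in Mag. The groups were small, and the share of all genes with such a pattern was not counted. The 5 are therefore a list for a closer look and no result about the members. The response of Myrf to KCl was 1.49 on the log2 scale at DIV7 and -0.41 in NT cultures at DIV18, a gap of 1.89. Age, library type, DMSO and guide RNA cannot be told apart there, and the difference was not tested. Its contrast of KO with vector against NT was 0.54 under KCl and -0.15 at rest, a gap of 0.69, and the fitted difference between the states did not pass (SE 0.335, adjusted p 0.571, edgeR). Its contrast of WT against NT was 0.16 under KCl and -0.23 at rest, a gap of 0.38 that was not tested. Mag, which had 2 to 9 counts in each of these libraries, was fitted without the low-count filter. Its contrast of WT against NT was 1.19 under KCl and -0.68 at rest, and its response to KCl was 0.88 in WT and -0.99 in NT. Both comparisons come from the same 9 libraries and have the same gap of 1.87, which was not tested.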

How the results depend on the processing

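The number of myelin genes or Mbp forms called was within 1.5 times of its value in 104 refits other than those that leave out a library, and moved further in 6. DESeq2 counts of 3 comparisons are not among these refits, because it gave Cldn11, called in edgeR, no adjusted p there. In all comparisons but those 3 the value was 0, so most of the 104 refits are a 0 that stayed 0. Those that moved included 1 call without the low-count filter in KO with vector against NT under KCl (otherwise 0), 1 in S586E against WT at rest (otherwise 0, the gene being Mbp) and 2 in S586E against NT at rest (otherwise 1). The fit with the replicate number as a block also gave 2 in S586E against NT at rest, and changed no other count of members. No pairing is stated for those libraries. Length offsets gave 0 in S586E against NT at rest and 1 at DIV7 (otherwise 2). Leaving out single libraries gave 0 to 2 calls in KO with vector against NT at rest (0 without NT replicate 2, 2 without vector replicate 3), 0 in S586E against NT at rest and 0 to 1 at DIV7 (0 without resting replicate 1). The cause was not tested.

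Over all genes, calls in KO with vector against NT at rest went from 1236 to 2016 without the low-count filter, 681 with length offsets, 225 when the fit held only the compared groups and 100 without NT replicate 2. In KO with vector and S586E against NT at rest and at DIV7, where DESeq2 gave Cldn11 no adjusted p (log2 fold changes -5.20, -4.33 and 2.68), it called 0, 1 (Ugt8a) and 1 (Myrf) members.

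Signs changed for values that did not pass. With the replicate block Mobp was at -0.11 in KO with vector against NT at rest and at -0.054 in S586A against NT, and with length offsets Myrf was at 0.0011 in S586E against NT and Ugt8a at -0.54 in S586A against NT. When single libraries were left out, Mobp ran from -0.39 to 0.54 with vector at rest, from -0.55 to 0.16 with WT at rest and from -1.33 to 0.76 with S586A. Against NT, Mbp ran from -0.25 to 0.18 with WT at rest, Cnp from -0.58 to 0.091 with WT under KCl and from -0.14 to 0.36 with S586A, and Mog from -0.20 to 0.023 with S586A. Cldn11 ran from -2.80 to 0.64 in the KCl response of KO with vector, from -1.95 to 2.55 in the difference between the vector contrasts, from -0.55 to 1.27 in S586E against vector and from -2.84 to 3.26 in S586A against vector. Where a group kept 1 library, it was assumed to vary like the others. Counts of 0 to 35 limit Cldn11, and Mag and Mal had too few counts for the low-count filter.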
